A study of Mus musculus with 4 samples.

Results

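The transcripts of the cytokines TNF, IL-6 and IL-10, of 4 receptor chains that receive them and of 2 feedback genes of the NF-κB pathway were followed through the leukocytes of mouse hindpaws. The 9 genes were taken by symbol from the 32285 features listed in every library: the ligands Tnf, Il6 and Il10, the receptor genes Tnfrsf1a, Tnfrsf1b, Il6ra and Il10ra, and the feedback genes Tnfaip3 and Nfkbiz. Cells came from male C57BLKS/J-Dock7m +/+ Leprdb mice, either Lepr db/db animals (DB), which lack the long signalling form of the leptin receptor in all tissues and become obese and diabetic, or their wild-type littermates (WT), at 12 and 21 weeks. The labels call the ages young and aged, and the weeks are those of the study's methods. The db change alters splicing of Lepr, so 3′ counts of that gene do not check the labels. Each of the 4 groups was 1 library, named by age and genotype, of living CD45+ cells sorted after collagenase digestion at 37 °C, pooled from 2 to 3 mice. Where 4 values are listed, they are those of 12-week-WT first, then 12-week-DB, then 21-week-WT and last 21-week-DB. With 1 library per group, no test between genotypes or ages was made, and intervals on single values cover counting error only.

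TNF is made as a membrane protein and acts on TNFR1 (Tnfrsf1a), present on most cells, and on TNFR2 (Tnfrsf1b), found mainly on leukocytes and best stimulated by membrane TNF. Both receptors activate NF-κB, which in turn raises transcription of Tnf, of Il6 and of genes that feed back on the pathway. Among these are the ubiquitin-editing enzyme A20 (Tnfaip3), an inhibitor that closes the loop, and the nuclear IκBζ (Nfkbiz), a cofactor needed for Il6. IL-6 binds IL-6Rα (Il6ra) together with the shared chain gp130 and signals through STAT3, while IL-10 binds IL-10R1 (Il10ra), also signals through STAT3, and restrains cytokine production by macrophages and dendritic cells. In skin, mast cells, macrophages and dendritic cells are known sources of TNF and IL-6, and regulatory T cells and macrophages are known sources of IL-10.

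The regulatory sequences of 3 members are shown because their levels set the cell types apart: Tnf, which many cell types shared, and Il6 and Tnfaip3, which were highest on average in mast cells. The 250 bases before the transcription start were taken from RefSeq on GRCm38.p6, which held 6 of the 9 genes (not Il10, Il10ra or Nfkbiz). Capitals mark matches on either strand to the NF-κB consensus, to the AP-1 element TGANTCA and to the TATA box TATAAA, which were present in 3.90%, 6.75% and 12.4% of 32851 promoter windows. The Tnf window lies at chr17:35202008-35202257, the Il6 window at chr5:30012864-30013113 and the first of 2 Tnfaip3 windows at chr10:19015411-19015660, and Tnf and Tnfaip3 are on the minus strand. The genes themselves span chr17:35199381-35202007 (Tnf), chr5:30013114-30019981 (Il6) and chr10:19000910-19015657 (Tnfaip3) in GENCODE. The RefSeq start behind the Tnfaip3 window lies inside that span, so nearly all of the window is within the gene as GENCODE gives it, and distances refer to the RefSeq start.
Tnf: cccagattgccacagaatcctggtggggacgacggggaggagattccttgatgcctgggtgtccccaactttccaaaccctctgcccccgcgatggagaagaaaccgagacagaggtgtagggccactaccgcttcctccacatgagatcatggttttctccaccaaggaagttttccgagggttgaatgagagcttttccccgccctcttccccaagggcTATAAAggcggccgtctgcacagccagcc
Il6: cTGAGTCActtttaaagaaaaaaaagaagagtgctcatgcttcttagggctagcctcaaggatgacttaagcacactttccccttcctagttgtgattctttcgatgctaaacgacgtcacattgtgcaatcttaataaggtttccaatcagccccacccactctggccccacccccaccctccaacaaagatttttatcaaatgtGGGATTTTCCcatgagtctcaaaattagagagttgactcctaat
Tnfaip3: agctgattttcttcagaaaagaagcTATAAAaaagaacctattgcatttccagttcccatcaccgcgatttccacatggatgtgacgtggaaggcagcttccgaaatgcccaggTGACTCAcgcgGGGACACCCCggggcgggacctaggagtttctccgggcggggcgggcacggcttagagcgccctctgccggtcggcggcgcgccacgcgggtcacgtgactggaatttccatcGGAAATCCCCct
The Il6 window held an NF-κB match 44 to 35 bases before the start and an AP-1 match 249 to 243 bases before it. The Tnfaip3 window held NF-κB matches at 125 to 116 and at 12 to 3 bases before the start, with an AP-1 match at 136 to 130. The Tnf window held a TATA box at 29 to 24 bases before the start and no match to either factor's letters. A match describes the letters and not a bound site.

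Members also differed in the AU-rich nonamer TTATTTATT of the 3′ untranslated region, the element through which tristetraprolin (Zfp36) shortens the life of cytokine mRNA. Counting overlapping copies, it occurred 5 times in the 764 bases of Tnf, 3 times in the 1693 bases of Il10ra and 1 time in the 1821 bases of Tnfaip3. It was not found in Il6, Il10 or the other members. Of 3030 mouse untranslated regions as long as that of Tnf, 3.99% held it, against 9.20% of 3610 as long as that of Il10ra and 9.66% of 3581 as long as that of Tnfaip3. For Tnf and Il10ra, 1 stretch each is shown with its first nonamer in capitals, at chr17:35199689-35199717 and chr9:45254123-45254151 of GRCm38, both on the minus strand. Each stretch holds a further copy that overlaps the capitals and runs on in lower case.
Tnf: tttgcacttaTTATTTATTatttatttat
Il10ra: ctgggaacctTTATTTATTtatttgctca
Il6 and Il10 carried 10 and 6 copies of the shorter pentamer ATTTA, and Tnf carried 8.

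The libraries held 47851794 to 69626521 unique molecular identifiers (UMIs, 1 per counted RNA molecule) in 5998 to 9124 barcodes. With a minimum of 200 genes and a maximum of 10% mitochondrial UMIs per barcode, 27800 of 30793 barcodes remained, with a median of 7390, 7194, 8001 and 5355 UMIs. Marker genes placed 23839 of them in 14 cell types, of which 12 had at least 20 cells in every library, while 3224 matched no type, 551 matched more than 1 and 186 carried stromal or keratinocyte markers. The 21-week libraries shared 154 barcodes (1.88% of the smaller) and the 12-week libraries 41 (0.684%), and no ratio between libraries changed direction without them. Cell Ranger is given as 5.0.0 in the headers of both 12-week matrices and as 6.0.0 in those of both 21-week matrices, so age and software version cannot be told apart. Levels are given as CPM, the UMIs of a gene summed over a cell type of a library and scaled to a common total of all its UMIs. In such sums, fewer cells with a transcript and less transcript per cell cannot be told apart, so the share of barcodes with at least 1 UMI (positive barcodes) is given beside them.

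Tnf was spread over nearly all leukocytes of the hindpaw. In macrophages, the largest group of phagocytes and defined here by C1q transcripts, it stood at 208, 141, 369 and 504 CPM, and 40.4%, 29.99%, 43.6% and 44.3% of barcodes were positive. Mast cells, the granulated cells that store preformed TNF, held 457, 363, 385 and 228 CPM. Dermal γδ T cells, the IL-17-producing lymphocytes of the dermis, held 400.4, 251, 292 and 259.9 CPM. Mast cells and dermal γδ T cells thus exceeded macrophages in both 12-week libraries and lay below them in 21-week-DB. Type 2 conventional dendritic cells (cDC2) carried 206, 186, 217 and 528 CPM, above macrophages in both DB libraries, below them in 21-week-WT and nearly equal in 12-week-WT. Among barcodes without Il6, which were nearly all, 56.9%, 43.2%, 50.9% and 61.6% of cDC2 carried Tnf, against 39.9%, 29.4%, 42.4% and 42.3% of macrophages. Among the few with Il6 the macrophage share was the higher in each library. The cDC2 were deeper (median 11763 to 13691 UMIs against 8886 to 10470). Neutrophils ranked first by the mean (369.9 ± 444 SD, n = 4 libraries) only through 12-week-DB, where they held 1033 CPM against 94.0 in 12-week-WT, and 3 cells gave 31.2% to 65.4% of their Tnf in each library. Among the 12 types the ranges of neighbours in the order overlapped from neutrophils (369.9) through mast cells (358) and macrophages (305) to dermal γδ T cells (301). The overlap went on through cDC2 (284) to C1q-low phagocytes (264), so that no order among these 6 is given. C1q-low phagocytes are cells below the C1q limit of macrophages. They had either high MHC class II without dendritic cell markers past their limits, or lower MHC class II together with Csf1r. B cells were lowest, at 16.6 to 34.8 CPM. Macrophages gave 36.3%, 30.6%, 41.4% and 46.0% of all Tnf UMIs in kept barcodes.

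Il6 had its highest level in gated mast cells. It stood at 81.1, 218, 163 and 484 CPM (63, 128, 69 and 1040 UMIs), with exact 95% Poisson intervals of 62.3 to 104, 182 to 259, 127 to 206 and 455 to 514. The 4 values did not overlap those of monocyte-derived cells, the next type by the mean, which stood at 44.7, 76.7, 23.7 and 71.5 CPM. However, cDC2 and C1q-low phagocytes, lower by the mean, reached 102 and 101 CPM in their highest library, above the lowest mast cell value of 81.1. Positive barcodes made up 9.01%, 10.9%, 7.77% and 21.5% of mast cells, against 0.781%, 0% (which allows a level of up to 0.838 CPM), 0.232% and 0.404% of dermal γδ T cells, the lymphocytes used here as the background, although mast cells were the shallower type (median 1402 to 2005 UMIs against 5536 to 7392). A few cells carried much of the mast cell Il6 outside 21-week-DB, since 3 cells gave 41.3%, 45.3% and 72.5% of the UMIs in the first 3 libraries but 9.90% in 21-week-DB. After each barcode was thinned to 2000 UMIs, 8.59%, 13.5%, 9.33% and 24.9% of 163, 96, 75 and 334 mast cells were positive. Mast cells gave 49.3% of all Il6 UMIs in 21-week-DB, where they numbered 1245, and 5.79% to 29.4% in the libraries with 206 to 322 of them.

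Il6 was lower in the other myeloid cells. Macrophages held 3.16, 2.37, 9.55 and 21.2 CPM, with 1.55%, 1.05%, 3.13% and 4.996% of barcodes positive, and cDC2 held 3.09, 6.99, 24.1 and 102, with 3.18%, 3.28%, 8.08% and 21.2% positive. Both 21-week libraries were above both 12-week libraries in each of these types. The level that free RNA from other cells could give macrophages was estimated at 0.140 to 0.685 CPM. Group 2 innate lymphoid cells (ILC2) read 15.2, 2.43, 56.2 and 4.74 CPM, but 3 cells gave 34.9% to 94.1% of those UMIs. When cells were named by clusters in place of gates, the mean over libraries moved from 9.08 to 16.9 in macrophages, from 19.6 to 2.60 in ILC2 and from 14.9 to 309 CPM in neutrophils, which then stood above mast cells (217). Of the 454 barcodes of that neutrophil cluster, 74.7% were in the neutrophil gate.

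Il10 had its highest mean level in αβ T cells. The αβ T cells stood at 116, 121, 80.9 and 121 CPM (110 ± 19.3 SD, n = 4 libraries) with 8.66%, 9.34%, 8.61% and 15.9% of barcodes positive, and their mean was 168 when cells were named by clusters. Monocyte-derived cells came next (67.7 ± 42.2 SD, 35.8 to 125 CPM), and their range overlapped that of αβ T cells. Few αβ T cells carried it, since 3 cells gave 20.5% to 62.8% of the UMIs. Barcodes with a UMI of Foxp3, the factor that defines regulatory T cells, held 115, 351, 209 and 324 CPM (54, 105, 119 and 208 cells), against 117, 62.2, 52.6 and 56.1 in the other αβ T cells. The Foxp3+ level was the higher of the pair in 3 libraries and equal within counting error in 12-week-WT, although the share of positive barcodes there was 14.8% against 6.78%. Macrophages, the third by mean level, held 31.6, 11.97, 55.7 and 40.2 CPM with 7.87%, 3.85%, 10.7% and 6.21% positive, and gave 47.7%, 22.4%, 41.5% and 26.5% of all Il10 UMIs. Mast cells, high in Il6 and Tnf, held 1.70 to 9.44 CPM of Il10, from 1 to 11 UMIs per library.

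**Figure D1:**
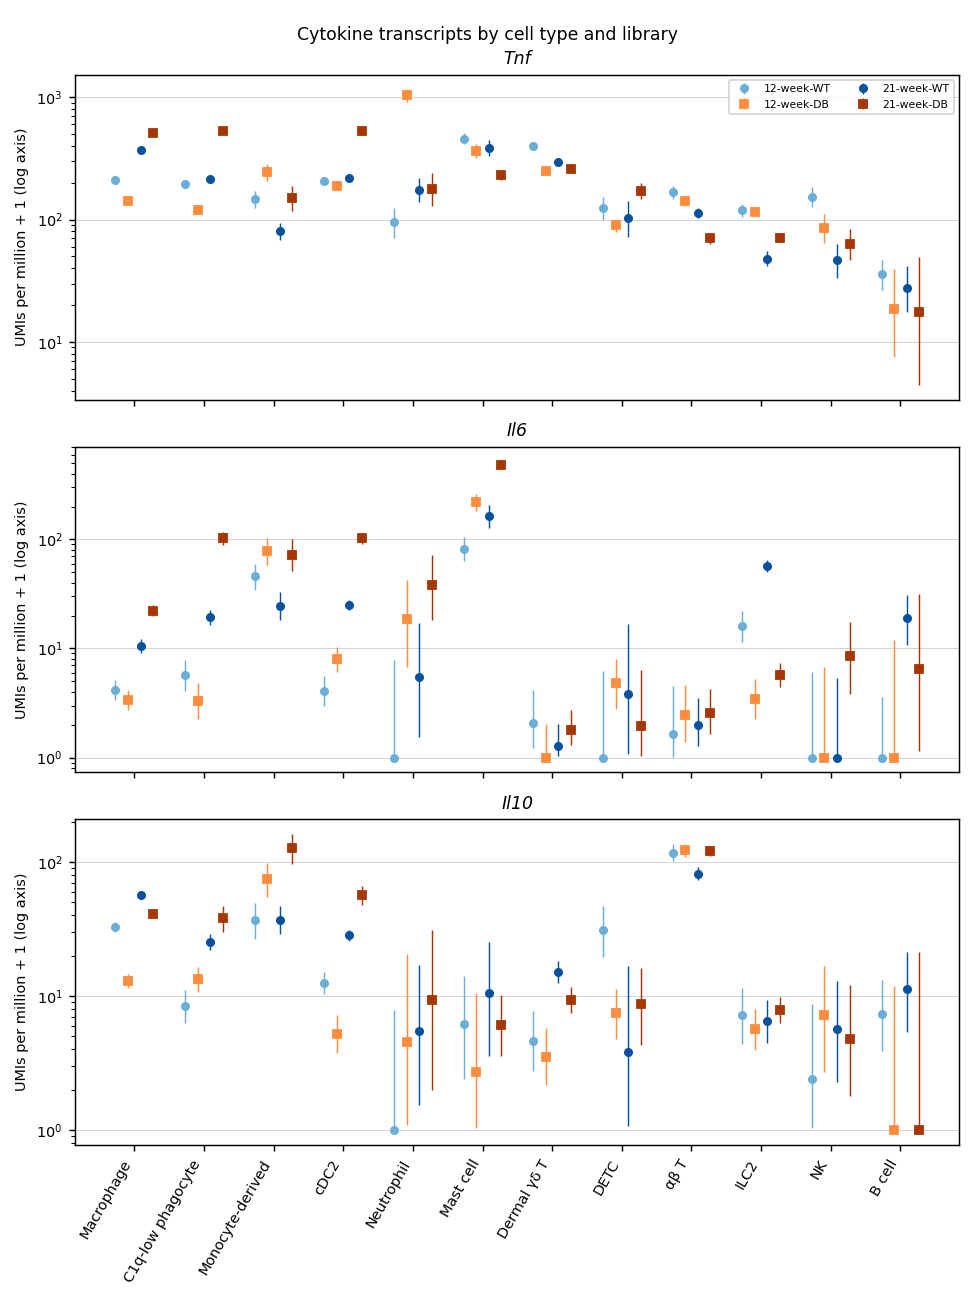
CPM + 1 (log axis) of Tnf, Il6 and Il10 in 12 cell types, 1 point per library with its exact 95% Poisson interval. Tnf is high in most types with the lowest points in B cells, Il6 peaks in mast cells (81.1 to 484 CPM), and Il10 is highest by the mean in αβ T cells (80.9 to 121), where the range overlaps that of monocyte-derived cells (35.8 to 125).

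The 2 TNF receptors were placed differently. Tnfrsf1a, the death-domain receptor TNFR1, was a transcript of phagocytes: neutrophils held 135, 177, 172 and 124 CPM, monocyte-derived cells 94.8 to 147 and macrophages 90.2, 99.3, 72.7 and 104, and the macrophage values did not overlap those of C1q-low phagocytes (56.0 to 67.2). It was nearly missing from mast cells, with 3, 3, 1 and 2 UMIs in all, or 3.86, 5.11, 2.36 and 0.93 CPM, and the free-RNA estimate for these cells was 3.39, 3.41, 2.05 and 1.90. Tnfrsf1b, for TNFR2, was highest by the mean in dendritic epidermal T cells (DETC), the γδ T cells of the epidermis, at 399.6, 389.8, 348 and 288 CPM. Neutrophils, at 173, 389, 374 and 278 CPM, overlapped them and were the higher in 21-week-WT. Foxp3+ αβ T cells, in which TNFR2 supports suppressive function, held 272, 273, 185 and 265 CPM of Tnfrsf1b, above the 81.2, 109, 91.9 and 125 of other αβ T cells in every library. In cDC2 it was 52.9, 77.0, 93.3 and 271 CPM, with 21-week-DB far from the rest, whereas the macrophage level varied only from 98.9 to 112. The share of positive macrophages was nevertheless lowest in 21-week-DB. It was 59.1%, 58.9%, 57.6% and 46.3% among macrophages with Lyve1 (a split described below) and 56.3%, 57.6%, 61.1% and 46.3% among those without.

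Il6ra and Il10ra also differed in place. Il6ra, the ligand-binding chain for IL-6, was led by monocyte-derived cells (195, 268, 223 and 185 CPM), cDC2 (186, 173, 163 and 102) and macrophages (183, 149, 152 and 129), whose ranges overlapped, and was lowest in NK cells at 18.1 to 24.1. Il10ra, the ligand-binding chain for IL-10, was highest in mast cells at 192, 169, 264 and 228 CPM, with no overlap with the next type. Macrophages held 107, 95.002, 113 and 67.4 CPM of Il10ra, and cDC2 85.4, 79.1, 80.0 and 54.9. Dermal γδ T cells were lowest at 3.996 to 8.66 CPM. Mast cells therefore combined the highest Il10ra with almost no Tnfrsf1a.

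**Figure D2:**
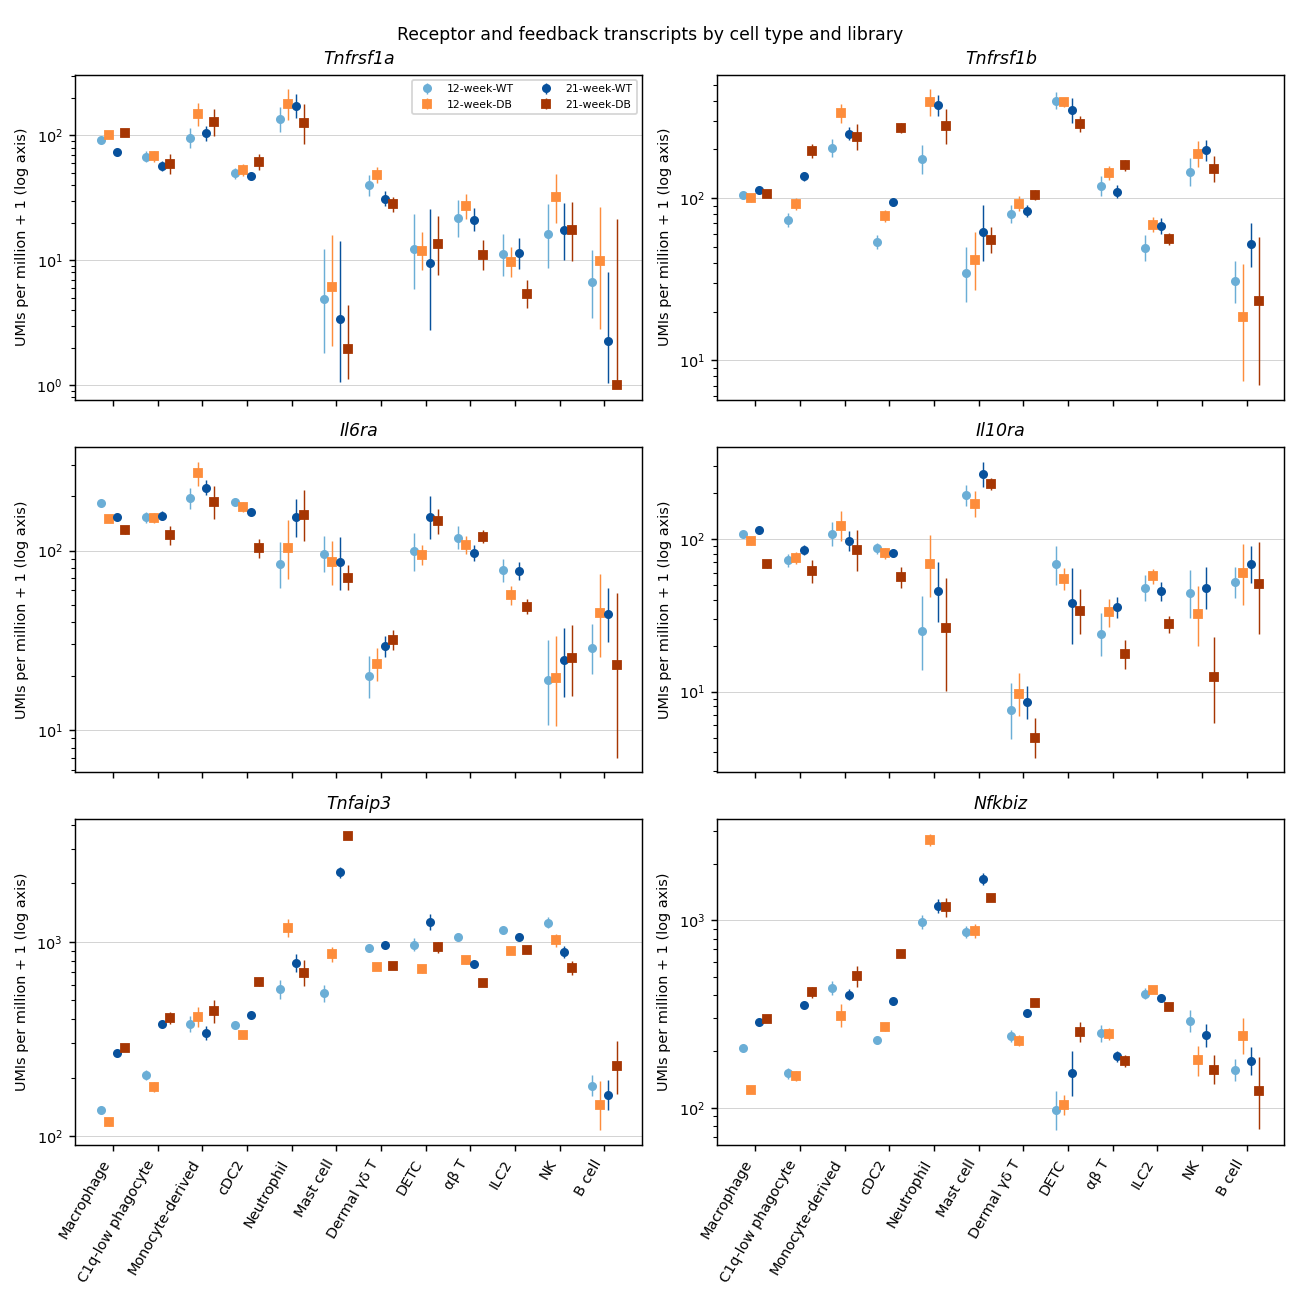
CPM + 1 (log axis) of Tnfrsf1a, Tnfrsf1b, Il6ra, Il10ra, Tnfaip3 and Nfkbiz in 12 cell types, 1 point per library with its exact 95% Poisson interval. Tnfrsf1a falls to 0.93 to 5.11 CPM in mast cells, where Il10ra is highest, and Tnfrsf1b is high in both DETC and neutrophils, whose ranges overlap.

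Tnfaip3 was lowest in macrophages and B cells, and Nfkbiz in DETC. Tnfaip3 reached 542, 864, 2282 and 3497 CPM in mast cells (45.0%, 43.7%, 71.8% and 75.4% positive), higher in both 21-week libraries than in both 12-week libraries. ILC2 held 895 to 1150 CPM, and macrophages only 135, 117, 268 and 283. Nfkbiz stood at 866, 881, 1661 and 1316 CPM in mast cells, at 980.4, 2689, 1193 and 1177 in neutrophils and at 208, 124, 286 and 296 in macrophages. DETC held 96.7 to 253 CPM of Nfkbiz. In neutrophils the 12-week-DB library was the highest for Tnf and for both feedback genes, and its summed level of early-response genes (described with the macrophage subsets) was also the highest, at 34902 CPM against 19338 to 27531.

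Differences between cell types that held across the 4 libraries were tested with edgeR's quasi-likelihood test on summed UMIs, with the library as a block and macrophages as the reference. These p-values measure the spread between 4 libraries of different condition. Of the 12286 genes tested in each type, 54.8% passed an adjusted p of 0.05 in mast cells, and 8 of 9 members did. Mast cells exceeded macrophages in Il6 by 4.95 ± 0.69 (log2 fold change ± SE, edgeR adjusted p = 1.83e-07), in Tnfaip3 by 3.12 ± 0.38 (adjusted p = 7.35e-09) and in Il10ra by 1.22 ± 0.17 (adjusted p = 4.32e-08), and Tnfrsf1a differed by -5.23 ± 0.35 (adjusted p = 1.46e-17). Tnf was the member that did not pass there (0.18 ± 0.52, adjusted p = 0.797). The summed level of early-response genes (described with the macrophage subsets) was also higher in mast cells, at 47341 to 63747 CPM against 7787 to 13227 in macrophages. Its part in these differences was not tested.

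In the other types 29.3% to 65.7% of genes were called, so that a member's call is not particular to it. Members called of 9 and the percent of all genes called were 1 and 29.3% in C1q-low phagocytes, 6 and 41.6% in monocyte-derived cells, 6 and 49.9% in neutrophils, and 4 and 39.8% in cDC2. Among lymphocytes they were 6 and 65.1% in dermal γδ T cells, 7 and 65.7% in DETC, 7 and 64.9% in αβ T cells, 8 and 65.1% in ILC2, 6 and 57.3% in NK cells and 6 and 59.6% in B cells. Il10 was higher in αβ T cells than in macrophages (log2 fold change 1.77 ± 0.39, edgeR adjusted p = 0.000191). Tnfrsf1b was higher in DETC (1.76) and in neutrophils (1.93), and Il10ra was lower in dermal γδ T cells (-3.94). Il6 was higher in monocyte-derived cells (3.18 ± 0.77, adjusted p = 0.00108). In cDC2 its difference of 1.75 ± 0.64 (adjusted p = 0.0275) was lost with DESeq2 (adjusted p = 0.156), without any 1 library (adjusted p = 0.0547 to 0.14) and with clusters in place of gates (adjusted p = 0.483).

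Within macrophages, the levels of the cytokine transcripts were higher in cells without Lyve1, a hyaluronan receptor that marks perivascular resident macrophages. Lyve1+ cells numbered 1107, 1058, 952 and 947 and Lyve1- cells 506, 656, 583 and 454 in the 4 libraries. Tnf was at 151, 88.9, 231 and 371 CPM in Lyve1+ cells against 357, 237, 639 and 847 in Lyve1- cells, and Il10 at 14.8, 4.38, 20.0004 and 7.84 against 74.5, 26.1, 126 and 123. The Lyve1+ value was the lower of the pair in every library for both genes, although Lyve1+ cells were the deeper (median 9518 to 11202 UMIs against 7888 to 9498). By edgeR with the library as a block, 26.8% of 11862 genes passed, and 7 of 9 members did, all lower in Lyve1+ cells: Il10 (log2 fold change -2.95 ± 0.32, adjusted p = 0.00548), Tnfaip3 (-1.67 ± 0.08, adjusted p = 5.29e-07), Il6 (-1.65 ± 0.31, adjusted p = 0.00831), Tnf (-1.42 ± 0.07, adjusted p = 1.26e-06), Nfkbiz (-1.02), Tnfrsf1b (-0.70) and Il10ra (-0.37). Tnfrsf1a (0.16, adjusted p = 0.133) and Il6ra (-0.10, adjusted p = 0.349) did not pass. Tnfrsf1b lost its call without 21-week-WT (adjusted p = 0.0635), and without the library block only 2 members passed.

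The split by MHC class II gave the reverse picture. MHCII-high macrophages, with log-normalized H2-Ab1 of at least 2, numbered 551, 615, 771 and 180, against 1062, 1099, 764 and 1221 MHCII-low cells. Il6 was at 4.95, 5.37, 14.8 and 86.3 CPM in MHCII-high cells and at 2.25, 0.80, 4.06 and 11.4 in MHCII-low cells, so the high cells led in each library. Tnf was at 317, 241, 458 and 722 against 152, 88.2, 276 and 471. By edgeR with the block, 29.3% of 11867 genes passed and 7 of 9 members did, with Il6 (2.40 ± 0.28, adjusted p = 0.00048), Il10 (2.16 ± 0.21, adjusted p = 0.00111), Tnfaip3 (1.56), Tnf (1.06 ± 0.14, adjusted p = 0.00209), Nfkbiz (0.80) and Il10ra (0.23) higher and Tnfrsf1a (-0.27) lower in MHCII-high cells. The Il10ra call was lost under 5 alternatives, Tnfrsf1b (0.57, adjusted p = 0.0536) was gained under 6, and without the library block none of the 9 passed, with adjusted p of 0.0698 to 0.581.

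**Figure D3:**
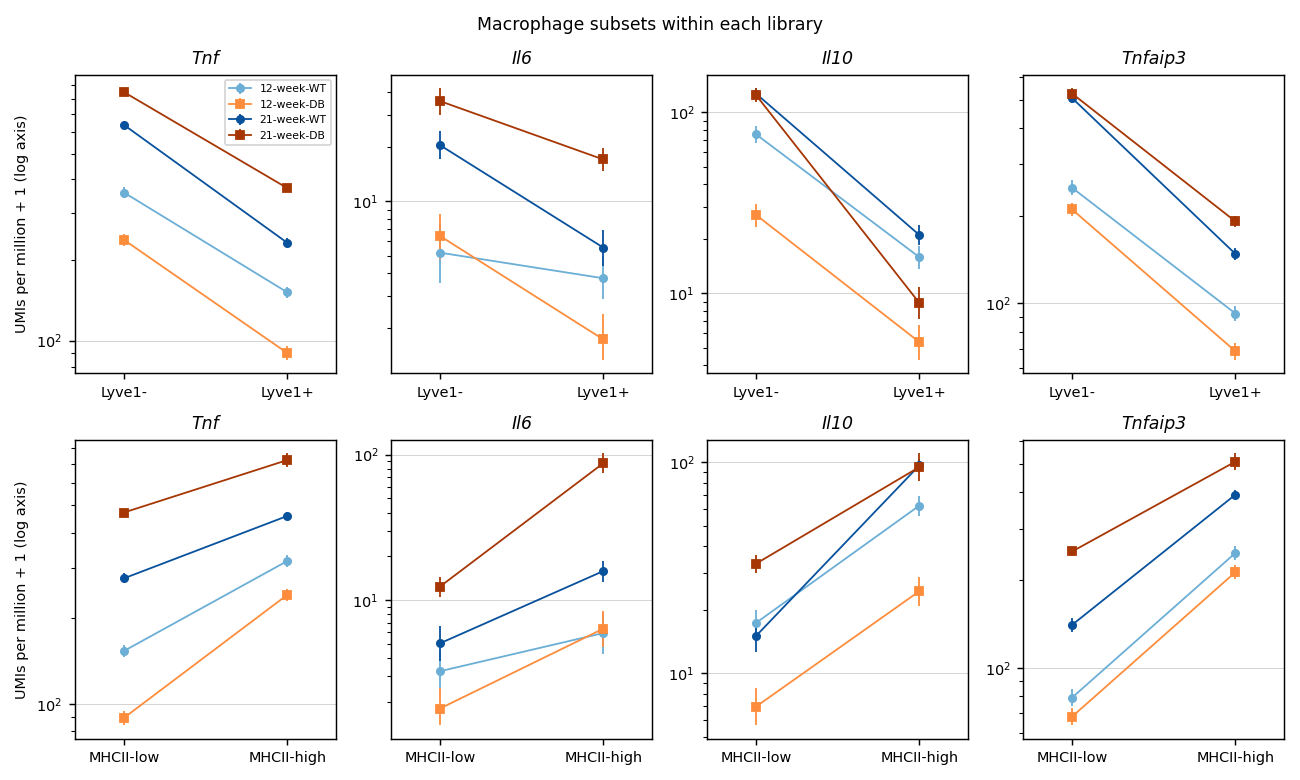
CPM of Tnf, Il6, Il10 and Tnfaip3 in Lyve1- and Lyve1+ and in MHCII-low and MHCII-high macrophages, with a line joining the values of each library. Every line falls toward Lyve1+ cells and rises toward MHCII-high cells.

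Genes of the early response, a list of 19 immediate-early genes such as Fos, Jun and Egr1 and heat-shock genes such as Hspa1a and Hspa8 that tissue digestion at 37 °C can induce, moved with these subsets. All 19 were lower in Lyve1+ cells, with a summed level of 9964, 6416, 10460 and 10867 CPM against 14104, 10339.9, 18656 and 18767, and 18 of 19 were higher in MHCII-high cells. Their part in the member results was not tested. Of 12 NF-κB inhibitors and feedback genes, 10 were lower in Lyve1+ cells (median log2 fold change -0.76) and 8 were higher in MHCII-high cells (0.77). Of 20 TNF receptor signalling genes, 9 were lower in Lyve1+ cells (-0.23) and 9 higher in MHCII-high cells (0.18). Of the IL-6 family list, 12 of 14 genes passed the filter on low counts, and 6 were lower and 1 higher in Lyve1+ cells. Of the IL-10 family list, 8 of 13 passed it, and 5 were lower and 1, the transcription factor Maf, higher in Lyve1+ cells. Of 9 mRNA decay genes, the group of Zfp36, 4 were lower in Lyve1+ cells. In MHCII-high cells 6 genes of the IL-6 list were higher and 1 lower, 4 of the IL-10 list higher and 3 lower, and 3 decay genes higher.

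Macrophages with Il6 or Il10 were also more often positive for Tnf. Of 25, 18, 48 and 70 Il6+ macrophages, 72.0%, 83.3%, 81.3% and 82.9% carried Tnf, against 39.9%, 29.4%, 42.4% and 42.3% of the others. Of Il10+ macrophages, 52.0%, 59.1%, 67.9% and 80.5% carried Tnf, against 39.4%, 28.8%, 40.7% and 41.9%. Each share was the higher of its pair, and the median depth of Il6+ macrophages was 11597, 10436, 11324 and 9085 UMIs against 8841, 10256, 10443 and 9014. In mast cells the pair Il6 and Tnf went the same way in 12-week-WT (65.5% against 44.4%), 12-week-DB (58.1% against 32.0%) and 21-week-DB (35.8% against 21.2%) but not in 21-week-WT (37.5% against 40.5%). Il6+ mast cells were the deeper in each library, with medians of 2242, 2170, 2042 and 1628 UMIs against 1973, 1476, 1713 and 1368.

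Between genotypes and ages, macrophage cytokine transcripts were lower in 12-week-DB and highest, for Tnf and Il6, in 21-week-DB. The log2 ratio of DB to WT for Tnf was -0.57 (95% interval -0.64 to -0.49) at 12 weeks and 0.45 (0.40 to 0.50) at 21 weeks. The share of Tnf-positive macrophages given above was lower in DB at 12 weeks but nearly equal in DB and WT at 21 weeks. For Il6 it was -0.42 (-1.03 to 0.19) at 12 weeks, not detectable at this depth, and 1.15 (0.87 to 1.43) at 21 weeks. For Il10 it was -1.40 (-1.63 to -1.17) and -0.47 (-0.62 to -0.32), lower in DB at both ages. From 12 to 21 weeks Tnf was higher by 0.82 in WT and by 1.84 in DB, and Il6 by 1.59 and 3.16. Ratios that share a library (such as 21-week-DB) are not independent of each other. At least 50 UMIs over both libraries and 10 CPM in the higher one were required for a count of ratios past 2-fold. In macrophages these were 1 of 8 members for DB against WT at 12 weeks (2.27% of all genes), 1 of 9 at 21 weeks (4.98%), 0 of 8 for age in WT (1.92%) and 5 of 9 for age in DB (4.88%). The 5 were Il6, Tnf, Il10, Tnfaip3 and Nfkbiz, so the cytokines and feedback genes, and none of the receptors, differed by 2-fold between the DB libraries of the 2 ages. The median ratio of the members past this minimum was -0.26, 0.05, 0.29 and 1.26 in the 4 comparisons, against 0.02, 0.04, -0.17 and -0.14 over all genes. Among the receptors the largest macrophage ratios were those of Il10ra (-0.75, -0.86 to -0.64) and Tnfrsf1a (0.52, 0.41 to 0.63) for DB against WT at 21 weeks. Tnfrsf1b lay between -0.07 and 0.11 in all 4 comparisons, although the share of macrophages positive for it was lowest in 21-week-DB, as given above.

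Early-response genes differed between the same libraries. In macrophages their summed level was 11125, 7787, 13227 and 13079 CPM, with 0 of 19 ratios above 0 at 12 weeks for DB against WT (median -0.57) and 18 of 19 above 0 for age in DB (median 0.86, 8 of them past 2-fold). For DB against WT at 21 weeks, 9 lay above 0 and 10 below (median -0.04). Their part in the ratios of Tnf, Il6 and Il10 was not tested.

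The other genes of the pathways were described in macrophages by list. The TNF receptor signalling list had medians of -0.16 and -0.04 for DB against WT at 12 and 21 weeks and none of its genes was 2-fold apart, and the NF-κB feedback list had medians of -0.01 and -0.01, with Tnfaip2 at 1.21 and Nfkbid at -0.84 at 21 weeks. The IL-6 family list had medians of -0.05 and -0.11, with Lifr, a receptor chain for leukemia inhibitory factor, at 1.46 and Osm, the ligand oncostatin M, at -0.97 at 21 weeks. In the IL-10 family list (medians -0.52 and -0.10), Hmox1, the heme-degrading enzyme induced by IL-10, stood at 872 CPM in 21-week-DB against 175 in 21-week-WT, a log2 ratio of 2.32. In the same list Maf and Prdm1 were at -0.80 and -1.20 at 12 weeks. Zfp36, whose protein binds the AU-rich element of Tnf, stood at -0.81 at 12 weeks, and the decay list had medians of -0.39 and -0.07.

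Mast cells differed most in Il6 and Tnfaip3. The DB to WT log2 ratio of Il6 was 1.43 (0.98 to 1.89) at 12 weeks and 1.57 (1.22 to 1.94) at 21 weeks, and the 21-week library was higher in both genotypes, by 1.01 (0.49 to 1.52) in WT and 1.15 (0.88 to 1.43) in DB. Since 3 cells carried 41.3% to 72.5% of the UMIs in 3 of the libraries, these intervals are narrower than the spread between cells would give. Tnf went the other way, at -0.33 and -0.75 for DB against WT. Tnfaip3 was higher in DB by 0.67 and 0.62 and higher at 21 weeks by 2.07 in WT and 2.02 in DB. Past 2-fold were 1 of 7 members for genotype at 12 weeks (1.78% of all genes), 1 of 7 at 21 weeks (8.42%), 2 of 7 for age in WT (6.89%) and 2 of 7 for age in DB (10.2%), and the members were Il6, and with age Tnfaip3 also. Clustering placed most mast cells of 21-week-DB (1268) in one cluster and most of the other libraries (267, 236 and 185) in another. Genes were scaled within each library before clustering, and mast cells made up 14.3% of 21-week-DB barcodes against 2.83% to 6.11% elsewhere. The split therefore cannot tell whether the cells themselves differ between libraries. The early-response sum in mast cells was 47341, 51351, 63747 and 57403 CPM, above every other cell type in each library. Macrophages held 11125, 7787, 13227 and 13079 CPM, and the part of these genes in the mast cell values was not tested.

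In cDC2 the 21-week-DB library stood apart, with 208 gated cells against 488 to 953 in the others. Its cells fell mostly in another cDC2 cluster (268 against 24) than those of the other libraries. Such a split was not particular to cDC2 and mast cells. Among dermal γδ T cells, 1 cluster held 329, 437, 661 and 10 barcodes and another 4, 23, 12 and 839. Among ILC2, 1 cluster held 260, 585, 424 and 6 and another 34, 31, 41 and 928. A further cluster of each was mixed, with 116, 123, 250 and 598 and with 103, 242, 166 and 1126. The scaling within libraries limits all these splits as it does in mast cells. The DB to WT ratios at 21 weeks were 1.29 (1.19 to 1.38) for Tnf, 2.08 (1.84 to 2.32) for Il6, 1.01 (0.73 to 1.29) for Il10 and 1.54 (1.40 to 1.67) for Tnfrsf1b, and those of Il6ra (-0.68) and Il10ra (-0.54) were below 0. At 12 weeks Tnf was at -0.15, Il6 at 1.18 (0.43 to 1.96), and at 0.48 with clusters in place of gates, and Il10 at -1.45 (-2.14 to -0.81), and at -2.598 and -2.035 when doublets were removed by rate and when clusters were used. Past 2-fold were 1 of 8 members for genotype at 12 weeks (1.15%), 4 of 9 at 21 weeks (6.60%), 2 of 9 for age in WT (2.77%) and 5 of 9 for age in DB (10.2%), with member medians of -0.11, 0.83, 0.18 and 1.304 against 0.03, 0.00, -0.18 and -0.23 over all genes. The early-response sum in cDC2 was 17051, 13782, 17988 and 20110.4 CPM.

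In αβ T cells the members differed little at 12 weeks, with 0 of 8 past 2-fold (1.58% of all genes) and a Tnf ratio of -0.24. At 21 weeks 2 of 8 were past it (6.59%), Il10ra at -1.07 and Tnfrsf1a at -1.01, with Tnf at -0.70 and Il10 at 0.58 for DB against WT. For age, 0 of 8 were past it in WT (4.10%) and 2 of 8 in DB (8.15%).

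**Figure D4:**
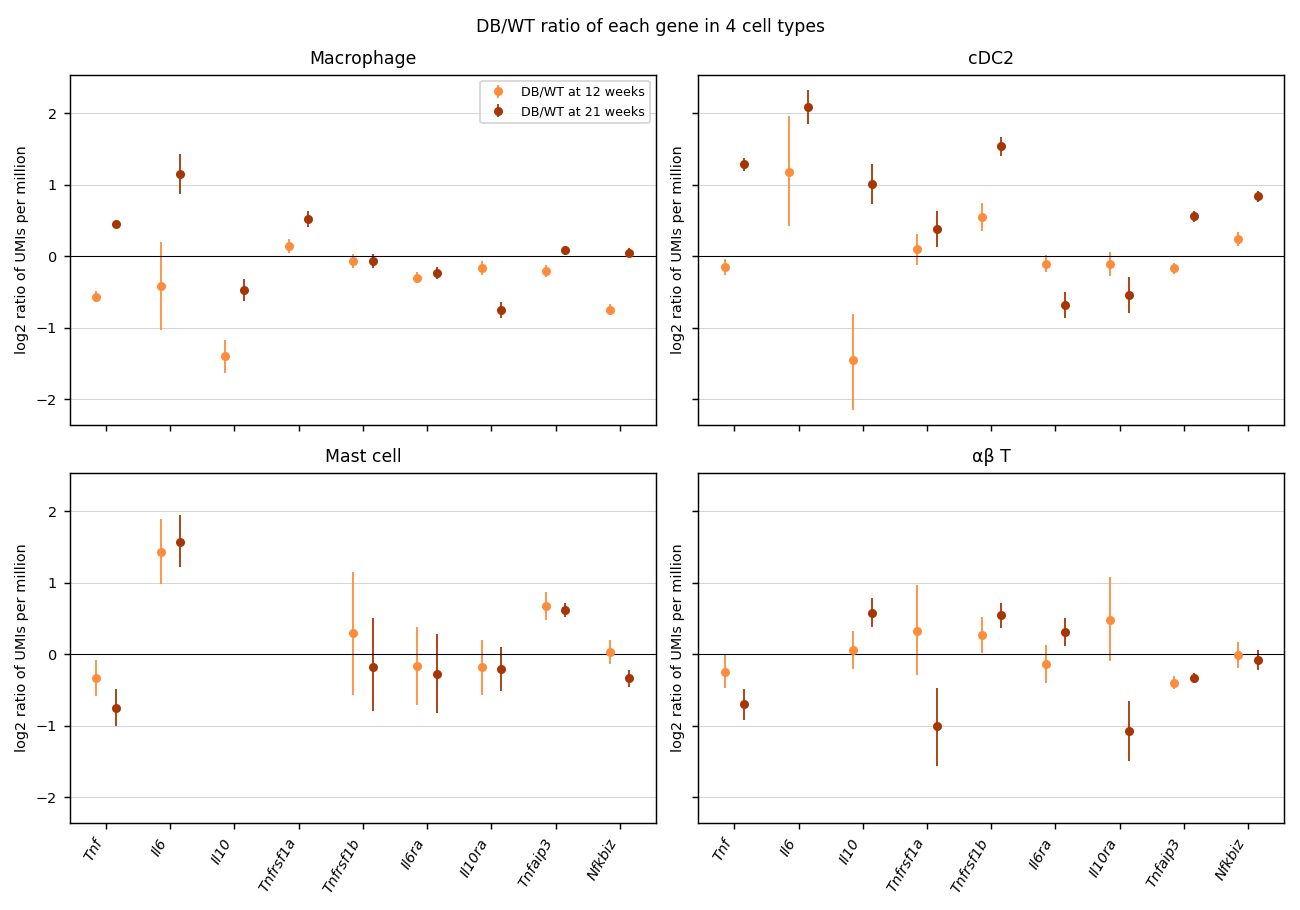
Log2 ratio of DB to WT at 12 and at 21 weeks for the 9 genes in macrophages, cDC2, mast cells and αβ T cells, with 95% counting intervals. Points are missing where a gene had under 50 UMIs over both libraries. Tnf in macrophages lies at -0.57 and 0.45, and Il6 in mast cells at 1.43 and 1.57.

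Summed over all gated leukocytes, Il6 stood at a log2 ratio of 0.09 (-0.16 to 0.33) for DB against WT at 12 weeks and 1.39 (1.28 to 1.50) at 21 weeks, and at 0.57 and 1.56 when the cell types were weighted as in WT. Tnf was at -0.39 and 0.36, and at 0.74 at 21 weeks with WT weights. Il10 was at -0.44 and 0.11. Across the 54 sums of a cell type in a library, the genes whose levels went most closely with each cytokine among 12508 genes were Mtmr6, Fxyd5, Fam214b, Itpripl2 and Ccrl2 for Tnf (Pearson r 0.68 to 0.73), the chemokines Ccl7 and Ccl2 with Gm10384, Papss2 and Vapa for Il6 (0.70 to 0.74), and A430093F15Rik, Ms4a6b, Snapc5, Tchh and Ebp for Il10 (0.54 to 0.56). These sums share 4 libraries and repeat the same cell types, and the correlations are a description.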

How the data were processed

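Single-cell RNA was captured with 10x 3′ v3 chemistry from CD45+ hindpaw cells, 1 library per group. The counts were deposited by the authors as UMIs of each gene in each barcode, made with Cell Ranger on mm10 (version 5.0.0 in the labels, 5.0.0 and 6.0.0 in the file headers), as whole numbers before the removal of free RNA and doublets that the study describes. The study's filter was kept (a minimum of 200 genes, a maximum of 10% mitochondrial UMIs). Cell types were gated on the summed UMIs of fixed markers per 10000 UMIs of a barcode, with at least 2 UMIs of a set (5 of C1q for macrophages), and barcodes matching more than 1 lineage were left out. The gate limits were set after marker counts, but not member genes, were seen. In macrophages 71, 202, 126 and 139 members had a C1q score under 2 times the limit, and 177, 218, 152 and 156 barcodes lay just below it, from 0.5 of the limit. Scrublet's own threshold marked 0 to 1.13% of barcodes and had thus not worked in every library, so removal by expected rate (4.21% to 6.96%) was an alternative.

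Levels are summed counts scaled to CPM with exact 95% Poisson intervals, shares have exact Clopper-Pearson intervals, and both cover counting error only. A count of 0 was given a floor of 3 counts. Between libraries, log2 ratios with binomial intervals were computed and not tested. Between cell types and macrophage subsets, the deposited counts were summed per library and tested with edgeR 4.0.16 (R 4.3.3; quasi-likelihood, TMM scaling, filterByExpr, library as a block, Benjamini-Hochberg over all genes), with DESeq2 1.42.0 as an alternative, over the 12 types with at least 20 cells in every library. Whether the libraries deviated together across subsets follows from the design, since both subsets of a pair came from the same library. On simulated counts, 65.8% of 199 genes changed 2-fold were recovered in the Lyve1 design (11885 genes, 8 false calls) and 46% of 200 in mast cells against macrophages (11383 genes, 7 false calls). The simulated sums shared a single expression profile, with a fixed dispersion and no library effect, and few genes changed. The recovery and false calls describe that setting and not the error of the tests on the real sums. Python 3.11.15, numpy 2.4.6, scipy 1.17.1, pandas 2.3.3 and scanpy 1.11.5 were used. Gene coordinates and untranslated regions came from GENCODE on GRCm38 and promoters from RefSeq. Named genes were the 9 members, up to 3 genes per pathway list with the largest ratios in macrophages, and the 5 genes most correlated with each cytokine. The members and lists were chosen with earlier results of these data known. A few items are not reported here.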

Additional observations from a re-analysis of the deposited data

Results flagged for a closer look

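In C1q-low phagocytes, as defined above, the DB to WT log2 ratio of Tnf was -0.70 (95% interval -0.84 to -0.56) at 12 weeks and 1.32 (1.21 to 1.43) at 21 weeks. Il6 in the same cells stood at -1.04 (-2.09 to -0.05) and 2.46 (2.15 to 2.77). In cDC2, Il10 stood at -1.45 and 1.01. These 3 were picked out because the 2 ages lay on opposite sides of 0, and with 1 library per group the difference was not tested. The C1q-low results depended on the cell naming, since clusters in place of gates gave 0.22 for Tnf and -0.39 for Il6 at 21 weeks.

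Barcodes that matched no cell type also carried the cytokines. In 21-week-DB, where they were most numerous (1493), they held 132 CPM of Tnf, 14.3 of Il6 and 51.7 of Il10. In the other libraries, from 12-week-WT over 12-week-DB to 21-week-WT, they held 175, 188 and 148 of Tnf, 68.4, 24.7 and 44.8 of Il6 and 31.4, 29.8 and 53.9 of Il10.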

How the results depend on the processing

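Of 108 mean levels, 107 moved by less than the spread between libraries when doublets were removed by rate and 85 did with clusters in place of gates, where Il10 in αβ T cells moved from 110 to 168. Of 141 log2 ratios, none whose 95% interval excluded 0 changed direction with at least 500 genes, without shared barcodes, with free RNA subtracted, with doublets removed or with totals lacking mitochondrial and ribosomal genes. The macrophage Tnf ratios kept their direction: DB to WT at 12 weeks -0.36 with clusters (-0.57 as reported); at 21 weeks 0.26 with at most 5% mitochondrial UMIs, 0.36 with clusters and 0.34 with TMM scaling (0.45); age in WT 0.94, 0.74 and 1.01 (0.82); and age in DB 1.46 with clusters and 1.92 with totals lacking those genes (1.84). Among these ratios, direction changed for Tnfaip3 in macrophages at 21 weeks (0.08; -0.059 with at most 5% mitochondrial UMIs, -0.36 with clusters, -0.028 with TMM), Il6ra in cDC2 with age in WT (-0.19; 0.028 with TMM), Tnfaip3 in cDC2 with age in WT (0.18; -0.042 with clusters) and Il6 in C1q-low phagocytes at 21 weeks (2.46; -0.39 with clusters). The cause was not tested. Ratios whose interval held 0 also changed sign under some settings, such as Il10 in αβ T cells for DB against WT at 12 weeks (0.06; -0.49 with at most 5% mitochondrial UMIs). With no minimum on counts, the share of all genes past 2-fold was 13.9%, 18%, 14.1% and 17.9% in macrophages and 15.5%, 20.9%, 20.3% and 21.9% in mast cells, mostly genes of few UMIs by construction.

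Without the library block, members called fell from 7 to 2 for Lyve1 and from 7 to 0 for MHCII, and leaving out 1 library each gave 6 to 7 and 6 to 8. Over the 11 cell types, 65 of 99 member calls against macrophages became 52 to 60 when 1 library was left out and 52 to 78 over all alternatives. No call between cell types or subsets as reported changed direction under these alternatives, but Il6, which was not called in ILC2 and C1q-low phagocytes, was called higher there with no filter (1.23 and 1.37) and lower with clusters (-2.50 and -3.34). Genotypes and ages were not tested, since each of the 4 groups had 1 library and a fit of both factors would leave 1 residual degree of freedom. Depth limited Il6 in macrophages (45 to 293 UMIs) and Tnfrsf1a in mast cells (1 to 3), whose mean of 3.07 CPM was 0.62 after free RNA was subtracted.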

Other observations

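Cells with Cd207 transcripts (27, 37, 19 and 38 barcodes in the order used above) were too few in 21-week-WT for the comparisons between cell types. They carried Tnf at 286, 271, 104 and 673 CPM. Their Il10 was at 26.7 CPM in 21-week-WT and at 244 in 21-week-DB, from 2 and 11 cells, and 3 cells gave 87.1% of the latter. At 12 weeks no Il10 UMI was counted in them, which allows up to 6.65 CPM in WT and 7.001 in DB.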
